A study of Mus musculus with 8 samples.

Results

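The genes described here are 38 DNA replication fork genes, measured in the annulus fibrosus of mice with and without the nucleoside transporter ENT1. They were chosen by name, for the place of their proteins at the replication origin or fork. That choice was made with earlier results of these data known, so counts of members beside all genes are descriptions. Each member was read from its single-gene probe set with the highest mean over 8 Affymetrix arrays. Of 22180 genes that could be read in this way, 37 were members. Rfc4 was read by no probe set of its own, since its only one also names Eif4a2. Of the 37, 35 passed the filter on low values and were tested among 15526 genes, while Gins1 and Dscc1 lay below the filter level of 6.21 (log2).

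The study's title asks about ENT1 and the multiplication of cells in the intervertebral disc. The tissue was thoracic annulus fibrosus, the tough outer ring of the disc, from Black 6 mice that were WT or ENT1-null, at 2 and at 6 months of age. ENT1-null mice carry a deletion of exons 2 to 4 of Slc29a1, the gene for equilibrative nucleoside transporter 1, and the labels name no promoter or Cre line that would limit it to a cell type. Each of the 4 groups had 2 arrays, and each array was made from 200 ng of RNA from a pool of 5 to 6 tissues. The labels leave unsaid whether replicate pools held tissue of different animals, so p-values measure the spread between these pools. Values are log2 levels made by RMA, a method that removes background, equalises the arrays and gives 1 value per probe set, and a difference of 1 on this scale is a doubling. Array medians lay between 6.77 and 6.82, the number of arrays limits the precision, and replicate arrays correlated at 0.983 to 0.984 across genes, which are not independent replicates. Slc29a1 was 10.34 to 10.71 in the WT arrays and 8.80 to 9.36 in the ENT1-null arrays, which matches the labels.

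Replication begins when the origin recognition complex, with Cdc6 and Cdt1, loads the ring of Mcm2 to Mcm7 onto DNA. Cdc45 and the GINS proteins turn that ring into a working helicase as a cell enters S phase. Polymerase alpha with its primase then starts each strand, polymerase epsilon copies the leading strand and polymerase delta the lagging strand, held by the Pcna clamp, and Fen1 and Lig1 join the lagging fragments. Chaf1a and Chaf1b place histones behind the fork, Uhrf1 helps restore DNA methylation there, and Clspn with Tipin guards a stalled fork. Most of these genes are transcribed mainly in dividing cells, under factors of the E2F family, and the adult annulus is known as a tissue in which few cells divide.

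At 6 months, 34 of the 35 members tested were higher in ENT1-null than in WT annulus by limma at an adjusted p below 0.05, against 21.2% of all genes tested that were higher. Their median difference was 1.21 (log2), a fold of 2.31, while the median of all genes tested was −0.03. The member that did not pass was Fen1, the nuclease that trims flaps from lagging fragments. At 2 months 1 member, Mcm4, passed as higher, against 0.296% of all genes, a call lost when any of 5 arrays was left out, and the median over the members was 0.49, with all 35 differences above 0 against 39.6% of all genes. The plot of ENT1-null minus WT by gene shows both ages. Each tissue was measured whole, so more cells of a type and more RNA per cell cannot be told apart in these values.

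**Figure D1:**
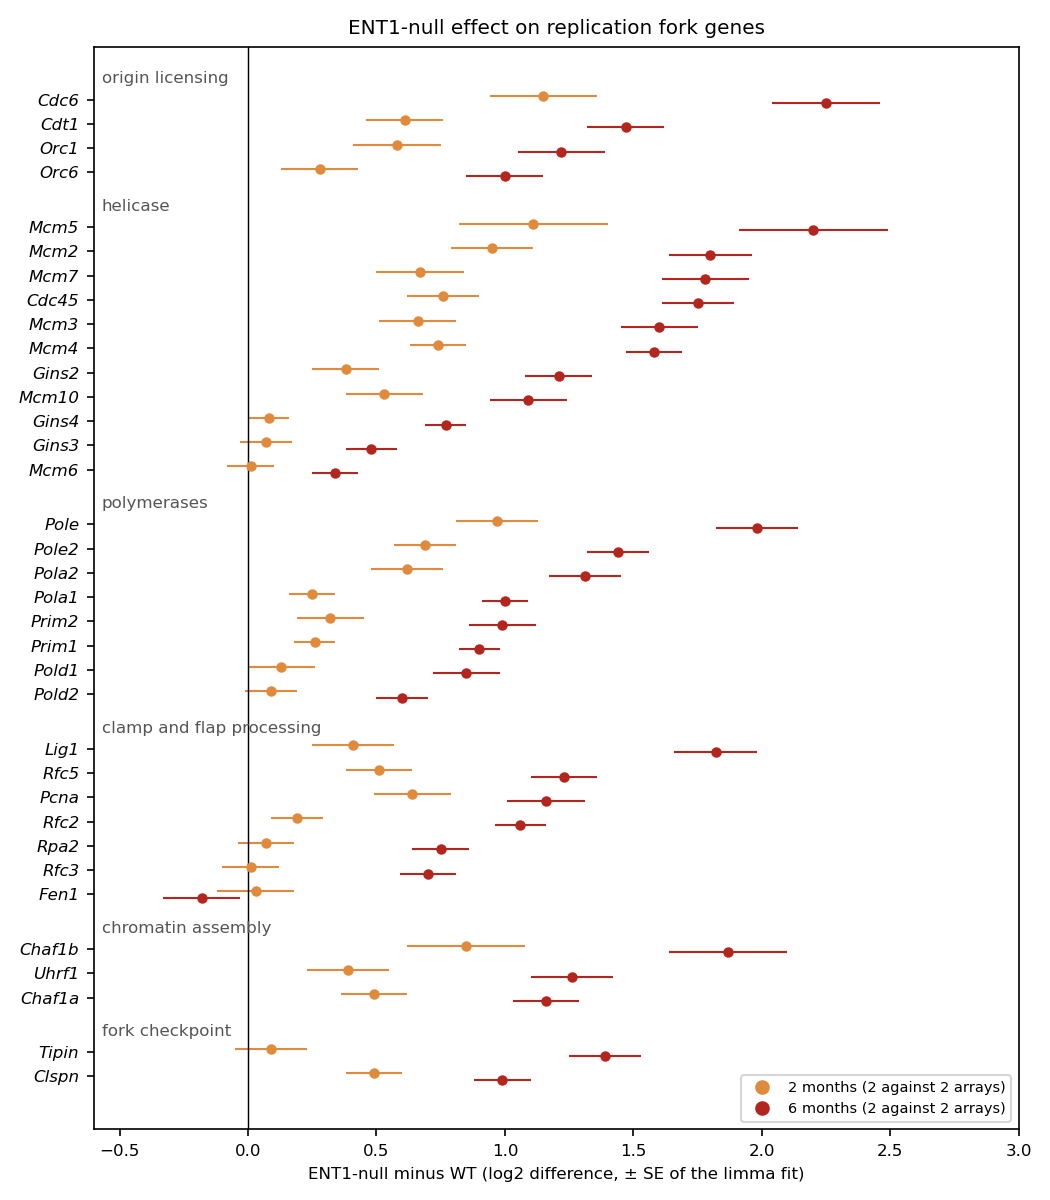
ENT1-null minus WT for the 35 members tested, as log2 differences with the SE of the limma fit, at 2 months (orange) and 6 months (red), ordered by size at 6 months within each subset. The 6 month point lies to the right of the 2 month point for 34 members, and Fen1 is the member with a negative value, −0.18.

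Of the members, 29 had a promoter window in a RefSeq table of GRCm38.p6, from 250 bases before to 50 bases after a gene's start. No window was matched for Gins1, Gins2, Gins4, Tipin, Prim2, Rfc2, Mcm4, Pole or Dscc1. The windows were searched on both strands for the letters that E2F factors bind (TTTCCCGC, TTTGGCGC, TTTGCCGC or TTTCGCGC). A match was found in 15 of the 29 members (51.7%) and in 2.6% of all 27025 genes with a window, tested on the arrays or not. The members were chosen as replication genes, most of them known to be under E2F factors, so a higher share follows from that choice. What moved the members was not tested. Matching letters are a description of the window and do not show that a factor binds there. Shown next are 120 bases of the promoters of 4 members, shown because each stretch holds a match before the start and overlaps no annotated gene. At 6 months 3 of these members lay near the low end of the differences and Mcm5 near the top. Capitals mark the matches, and each is printed 5′ to 3′ on the gene's own strand.
Mcm5 (chr8:75109336-75109455, plus strand, 2 overlapping matches): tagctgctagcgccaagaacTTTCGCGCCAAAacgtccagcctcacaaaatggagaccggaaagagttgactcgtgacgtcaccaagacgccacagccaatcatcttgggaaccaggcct
Mcm6 (chr1:128359716-128359835, minus strand, 3 matches): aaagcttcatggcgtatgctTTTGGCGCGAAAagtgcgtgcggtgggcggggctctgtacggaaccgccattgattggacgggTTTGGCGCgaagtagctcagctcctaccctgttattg
Gins3 (chr8:95633439-95633558, plus strand, 1 match): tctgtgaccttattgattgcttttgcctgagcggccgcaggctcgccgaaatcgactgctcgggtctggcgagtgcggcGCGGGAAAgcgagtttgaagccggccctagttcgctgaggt
Rfc3 (chr5:151651209-151651328, minus strand, 1 match, with a second match of its window at the start site and outside this stretch): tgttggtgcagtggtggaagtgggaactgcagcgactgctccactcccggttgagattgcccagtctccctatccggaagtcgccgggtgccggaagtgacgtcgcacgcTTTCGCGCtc
The stretch of Mcm6 holds the most matches of the 4, and Mcm6 differed least at 6 months of all members that passed (0.34), while Mcm5, with a similar overlapping pair, differed by 2.20. Among the 15 tested members with a match, the 6 month difference ran from 0.34 (Mcm6) to 2.25 (Cdc6) with a median of 1.26. Among the 13 tested members with a window and no match it ran from −0.18 (Fen1) to 1.87 (Chaf1b) with a median of 1.16. At 2 months the medians were 0.49 and 0.51, over ranges of 0.01 to 1.15 with a match and 0.03 to 0.95 without. The ranges overlap at both ages, and the difference between these sets was not tested. Counted by window rather than by gene, the E2F letters stood in 42.9% of member windows and 2.26% of all windows. Other letters common in promoters stood less far from the share in all windows. CCAAT stood in 60% of member windows and 37.4% of all windows, and GGGCGG in 68.6% and 35.7%. The cell cycle element CHR (TTTGAA or TTCGAA) stood in 20% and 19.2%, and TATAAA in 8.57% and 13.6%.

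All 4 origin licensing genes rose in ENT1-null annulus at 6 months, and their median difference was 1.34, a fold of 2.54. Here and below, a rise or fall at 6 months is ENT1-null against WT at that age, unless a change between ages is named. Cdc6, which helps load the helicase onto the origin, read 6.11 and 6.40 in WT against 7.33 and 7.48 in ENT1-null arrays at 2 months, and 6.74 and 6.22 against 8.49 and 8.97 at 6 months. Neither age had overlapping genotypes, and the 6 month ENT1-null arrays stood above all others. The difference was 2.25 ± 0.21 at 6 months (SE, n = 2 and 2, limma adjusted p = 0.00045), a fold of 4.75 and the largest of the members, and 1.15 ± 0.21 at 2 months (limma adjusted p = 0.0567). Cdt1, its partner in loading, read 6.98 and 7.33, then 7.60 and 7.93, in the WT and ENT1-null arrays at 2 months and 7.19 and 7.04, then 8.53 and 8.63, at 6 months. Here too the genotypes did not overlap at either age, with differences of 0.61 ± 0.15 (limma adjusted p = 0.0888) and 1.47 ± 0.15 (limma adjusted p = 0.00052). Orc6, a subunit of the origin recognition complex, read 7.89 and 8.04 against 8.25 and 8.24 at 2 months and 7.98 and 7.74 against 8.65 and 9.07 at 6 months. It showed the smallest 6 month difference of the subset, 1.00 ± 0.15 (limma adjusted p = 0.0018), after 0.28 ± 0.15 at 2 months (limma adjusted p = 0.356). Orc1, the subunit that ties the complex to the cell cycle, differed by 0.58 at 2 months and by 1.22 at 6 months.

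The helicase subset had the highest median of the 6 subsets at 6 months, 1.58 or a fold of 2.99, and all 11 of its members tested rose. Mcm4, a subunit of the ring, read 8.47 and 8.53 against 9.32 and 9.17 at 2 months (WT against ENT1-null, as throughout), and 8.72 and 8.65 against 10.14 and 10.38 at 6 months. The 4 groups lay apart from each other, and the difference was 0.74 ± 0.11 at 2 months (n = 2 and 2, limma adjusted p = 0.0443) and 1.58 ± 0.11 at 6 months (limma adjusted p = 0.000383). Its 2 month call was lost without the filter (limma adjusted p = 0.0611) and in a fit of the 2 month arrays alone (limma adjusted p = 0.0627). It was also lost when any 1 ENT1-null array of either age or 2 month WT replicate 1 was left out (limma adjusted p up to 0.254), with differences of 0.67 to 0.82. Cdc45, which joins the ring to start unwinding, read 6.80 and 6.97 against 7.58 and 7.72 at 2 months, and 7.05 and 6.64 against 8.53 and 8.66 at 6 months, with WT arrays of both ages mixed at the bottom. Its differences were 0.76 ± 0.14 (limma adjusted p = 0.0576) and 1.75 ± 0.14 (limma adjusted p = 0.000383). The other ring subunits apart from Mcm6 rose together at 6 months. At that age Mcm5 was higher in ENT1-null than in WT by 2.20, Mcm2 by 1.80, Mcm7 by 1.78 and Mcm3 by 1.60. Their differences at 2 months were 1.11, 0.95, 0.67 and 0.66. Mcm5 was also the least even within groups, with 2 month WT arrays at 7.25 and 8.09 and 6 month WT arrays at 8.17 and 7.51, and its SE of 0.29 was the widest of the members.

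Mcm6 stood apart from the ring it belongs to. It read 9.61 and 9.58 against 9.62 and 9.59 at 2 months, which overlap, and 9.64 and 9.66 against 9.90 and 10.08 at 6 months. The differences were 0.01 ± 0.09 (limma adjusted p = 0.957) and 0.34 ± 0.09 (limma adjusted p = 0.0202), a fold of 1.26. That call was lost when either 6 month WT array or 6 month ENT1-null replicate 2 was left out, after a second quantile normalization and in a fit of the 6 month arrays alone, with values between 0.23 and 0.35 and limma adjusted p between 0.0538 and 0.0893. Among the GINS genes, whose 4 proteins bind the ring as 1 complex, Gins2 rose by 1.21 at 6 months, Gins4 by 0.77 and Gins3 by 0.48. Their differences at 2 months were 0.38, 0.08 and 0.07. The call of Gins3 was lost without 6 month WT replicate 2 (limma adjusted p = 0.065). Gins1, below the filter level, read 5.72 and 5.73 against 6.08 and 6.13 at 2 months and 5.66 and 5.43 against 6.94 and 7.08 at 6 months, and a fit without the filter gave 1.47 ± 0.11 at 6 months (limma adjusted p = 0.000441). Mcm10, which helps to start the assembled helicase, differed by 1.09 at 6 months and by 0.53 at 2 months.

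All 8 polymerase genes rose at 6 months, with a median difference of 0.99, a fold of 1.99. Pole, the catalytic subunit of polymerase epsilon, read 6.12 and 6.43 against 7.20 and 7.29 at 2 months and 6.77 and 6.33 against 8.53 and 8.54 at 6 months. The genotypes were apart at both ages, with differences of 0.97 ± 0.16 (limma adjusted p = 0.0527) and 1.98 ± 0.16 (limma adjusted p = 0.000383). Its partner Pole2 read 7.12 and 7.37 against 7.90 and 7.96 at 2 months and 7.37 and 7.15 against 8.61 and 8.79 at 6 months, again without overlap. The differences of Pole2 were 0.69 ± 0.12 (limma adjusted p = 0.0544) and 1.44 ± 0.12 (limma adjusted p = 0.000418). In the polymerase alpha complex, which lays down the first bases of each fragment, Pola2 rose by 1.31 at 6 months, Pola1 by 1.00, and the primase subunits Prim2 by 0.99 and Prim1 by 0.90. Their 2 month differences were 0.62, 0.25, 0.32 and 0.26. The polymerase delta genes came last in the subset. Pold1, its catalytic subunit, differed by 0.85 at 6 months and by 0.13 at 2 months. Pold2 read 8.93 and 9.02 against 8.97 and 9.16 at 2 months and 8.68 and 8.68 against 9.22 and 9.34 at 6 months. Pold2 overlapped between the genotypes at 2 months and not at 6 months, where it rose by 0.60 ± 0.10 (limma adjusted p = 0.00253). The 6 month WT arrays were its lowest of the series.

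Of the 7 clamp and flap processing genes tested, 6 rose at 6 months and Fen1 did not pass, with a median of 1.06 over the 7. Lig1, the ligase that seals lagging fragments, read 7.28 and 7.51 against 7.69 and 7.92 at 2 months and 7.28 and 6.90 against 8.82 and 9.0 at 6 months. The 6 month ENT1-null arrays lay far above the rest, and the differences were 0.41 ± 0.16 (limma adjusted p = 0.21) and 1.82 ± 0.16 (limma adjusted p = 0.000418). Rfc2, a subunit of the clamp loader, read 6.99 and 7.02 against 7.06 and 7.34 at 2 months and 6.81 and 6.76 against 7.84 and 7.85 at 6 months. It differed by 0.19 ± 0.10 (limma adjusted p = 0.355) and rose by 1.06 ± 0.10 (limma adjusted p = 0.000471). Pcna, the clamp itself and a common label of dividing cells, differed by 1.16 at 6 months and by 0.64 at 2 months. The other loader subunits rose too at 6 months, Rfc5 by 1.23 and Rfc3 by 0.70, as did Rpa2, which coats single strands, by 0.75. Their differences at 2 months were 0.51, 0.01 and 0.07. Dscc1, part of a second clamp loader, lay below the filter level at 5.20 and 5.13 against 5.65 and 5.53 at 2 months and 5.35 and 5.24 against 6.54 and 6.43 at 6 months, and a fit without the filter gave 1.20 ± 0.10 at 6 months (limma adjusted p = 0.000442).

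Fen1 and Pole each had a second, dimmer single-gene probe set, and in both genes the probe sets went different ways. The dimmer ones had means of 6.08 (Fen1) and 5.99 (Pole), both below the filter level of 6.21. The brighter probe set of Fen1 read 7.05 and 7.19 against 7.11 and 7.20 at 2 months and 7.08 and 7.12 against 6.67 and 7.16 at 6 months, a 6 month difference of −0.18 ± 0.15 (limma adjusted p = 0.379). The dimmer one read 5.84 and 5.89 against 5.95 and 6.14 at 2 months and 5.64 and 5.56 against 6.79 and 6.82 at 6 months. In a fit over all 23521 single-gene probe sets, the dimmer one rose by 1.20 ± 0.10 at 6 months (limma adjusted p = 0.000512), as the other genes of its subset did. The brighter Fen1 probe set had a limma adjusted p of 0.435 in that fit. The value of Fen1 given above therefore rests on which probe set is read. In Pole the reverse held: the dimmer probe set read 6.03 and 6.19 against 6.03 and 5.94 at 2 months and 6.14 and 5.92 against 5.65 and 5.98 at 6 months. Its 6 month difference in the same fit over all probe sets was −0.21 ± 0.14 (limma adjusted p = 0.309). What each probe set detects was not tested.

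**Figure D2:**
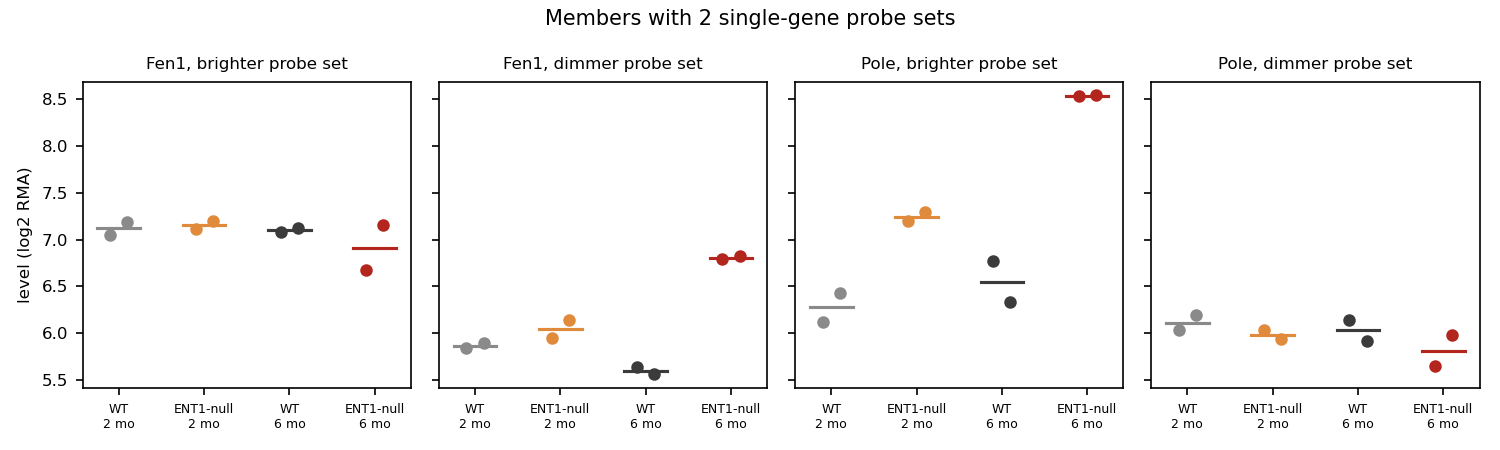
Log2 RMA level on each of the 8 arrays (points) with group means (lines) for the brighter and dimmer probe sets of Fen1 and Pole. The dimmer Fen1 and the brighter Pole probe sets are higher in the 6 month ENT1-null arrays than in all others, and the remaining pair of probe sets is not.

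All 3 chromatin genes and both checkpoint genes rose at 6 months, with medians of 1.26 and 1.19. Chaf1a, the large subunit of chromatin assembly factor 1, read 6.57 and 6.69 against 7.05 and 7.20 at 2 months and 6.69 and 6.39 against 7.79 and 7.62 at 6 months, without overlap at either age. It differed by 0.49 ± 0.13 (limma adjusted p = 0.0986) and rose by 1.16 ± 0.13 (limma adjusted p = 0.000598). Its partner Chaf1b read 7.04 and 7.32 against 7.92 and 8.13 at 2 months and 7.69 and 7.21 against 9.03 and 9.61 at 6 months, also without overlap. Its differences were larger and less even, 0.85 ± 0.23 (limma adjusted p = 0.104) and 1.87 ± 0.23 (limma adjusted p = 0.000825). Uhrf1, which brings the maintenance methyltransferase to newly copied DNA, read 7.55 and 7.47 against 7.69 and 8.12 at 2 months and 7.71 and 7.35 against 8.77 and 8.80 at 6 months. Here the 2 month difference was 0.39 ± 0.16 (limma adjusted p = 0.244) and the 6 month rise 1.26 ± 0.16 (limma adjusted p = 0.00106).

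Clspn, the adaptor that passes on the signal of a stalled fork, read 6.42 and 6.66 against 7.01 and 7.05 at 2 months and 6.68 and 6.59 against 7.52 and 7.72 at 6 months. The genotypes were apart at both ages, with differences of 0.49 ± 0.11 (limma adjusted p = 0.0801) and 0.99 ± 0.11 (limma adjusted p = 0.000689). Tipin, which steadies the fork with its partner Timeless, read 6.83 and 6.78 against 6.77 and 7.02 at 2 months and 6.73 and 6.37 against 7.96 and 7.93 at 6 months. Unlike Clspn, it overlapped between the genotypes at 2 months, where the difference was 0.09 ± 0.14 (limma adjusted p = 0.741), and it rose by 1.39 ± 0.14 at 6 months (limma adjusted p = 0.000472).

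**Figure D3:**
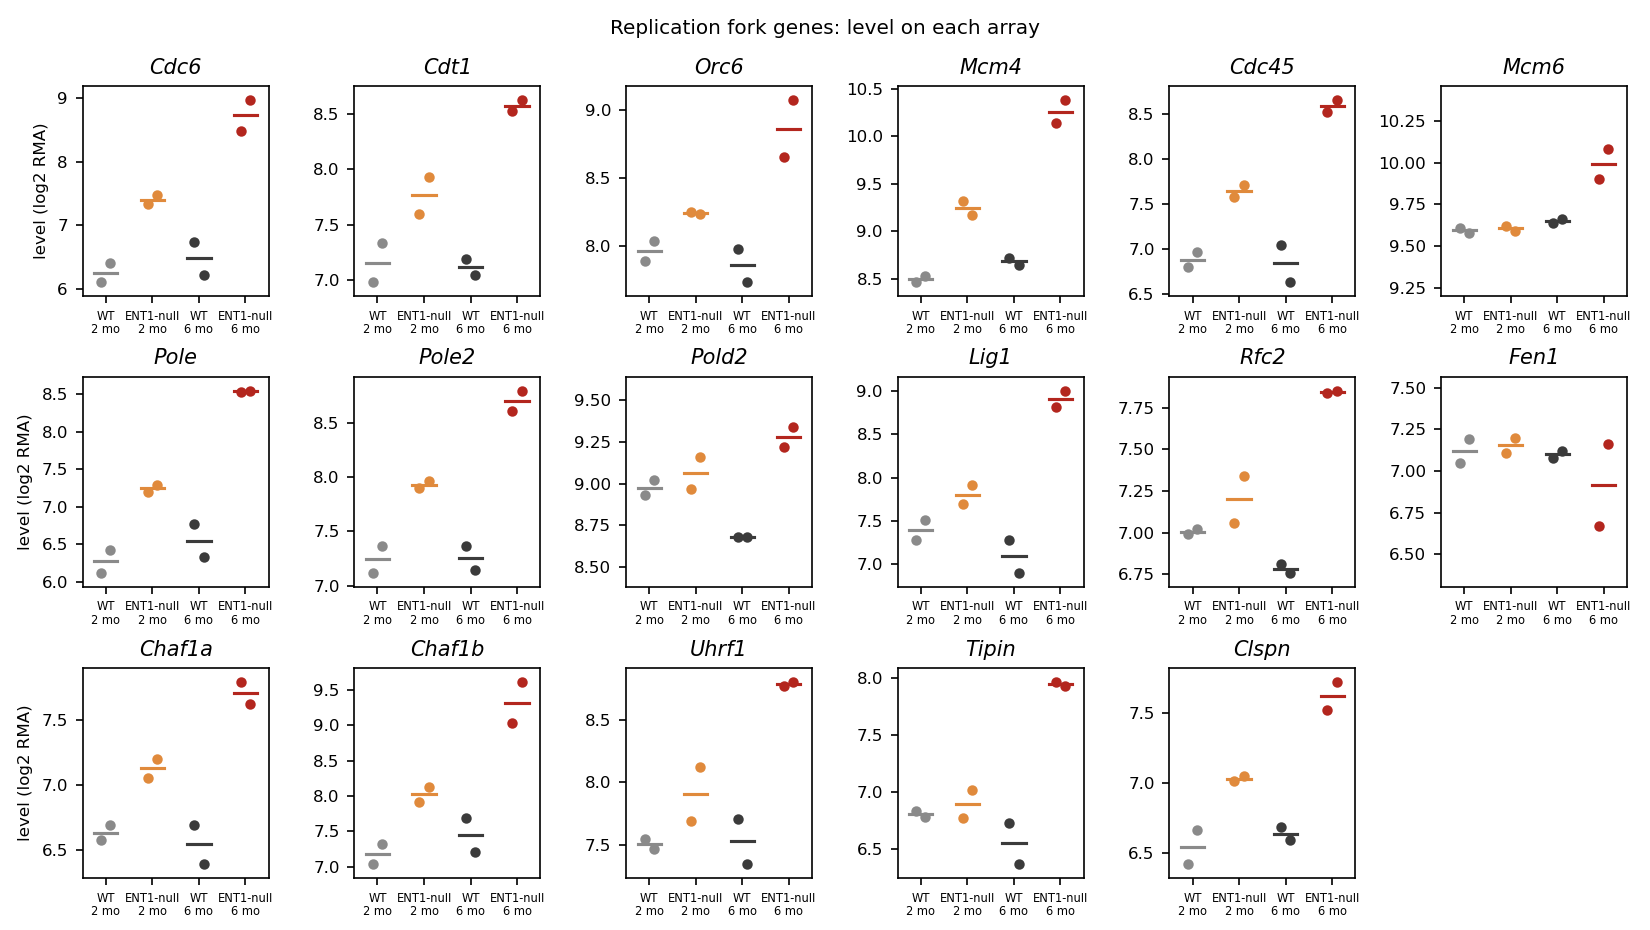
Log2 RMA level on each array (points, replicate 1 to the left) and group mean (lines) for the 17 members described in full; each panel has its own axis range. In all panels but Fen1 both 6 month ENT1-null arrays lie above every other array.

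At 2 months, both ENT1-null arrays lay above both WT arrays for 28 of 35 members, against 19% of all genes tested, although Mcm4 alone passed the adjusted test. The members that overlapped were Mcm6, Pold1, Pold2, Rfc3, Rpa2, Fen1 and Tipin, whose differences lay between 0.01 and 0.13. An unadjusted p below 0.05 was reached by 24 members and by 19.4% of all genes. The count of called members was 9 with either 6 month WT array left out, 5 without 2 month WT replicate 2, and 0 without any 1 of the other 5 arrays, so it rests on single arrays, while the median difference stayed between 0.39 and 0.55. Arrays centred on their medians gave 4 called members. At 6 months both ENT1-null arrays lay above both WT arrays for 34 of 35 members, against 35.6% of all genes tested, and the median stayed between 1.04 and 1.33 when any 1 array was left out.

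The effect of ENT1 loss was larger at 6 than at 2 months for 34 of 35 members, against 57.5% of all genes, and this difference passed its own test for 9, against 2.56% of all genes that passed as higher. The 9 were Lig1 (1.41 ± 0.22, limma adjusted p = 0.0383), Tipin (1.30), Mcm7 (1.11), Cdc45 (0.99), Rfc2 (0.87), Mcm4 (0.83), Pola1 (0.75), Gins4 (0.69) and Prim1 (0.64), so 4 were helicase genes, 2 polymerase genes, 2 clamp and flap genes and 1 a checkpoint gene. Neither licensing nor chromatin genes passed, although Cdc6 (1.10 ± 0.30, limma adjusted p = 0.0736) and Chaf1b (1.02 ± 0.32, limma adjusted p = 0.0947) differed by more than most that did. Over the 35 members the median difference of the effects was 0.72, against 0.05 for all genes, and an unadjusted p below 0.05 was reached by 34 members and 27% of all genes. No member passed without any 1 array other than 6 month WT replicate 1, whose removal gave 9 calls, 5 of them among the 9 named, and none passed without the filter on low values, where 11 of all genes did. The median stayed between 0.64 and 0.85 with any 1 array left out.

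Members with a larger difference at 2 months had a larger one at 6 months. Across the 35 members, Pearson r of both differences was 0.88 and Spearman's rho 0.89; the ages share no arrays, but members are not independent of each other, and no p is given. Cdc6, Mcm5, Pole and Mcm2 led at 2 months (1.15, 1.11, 0.97 and 0.95), and Cdc6, Mcm5, Pole and Chaf1b at 6 months. At the other end, Mcm6, Rfc3, Fen1, Gins3 and Rpa2 were lowest at 2 months and Fen1, Mcm6, Gins3, Pold2 and Rfc3 at 6 months. Lig1 and Tipin moved furthest up the order between the ages. Pearson r between the mean level of a member and its 6 month difference was −0.07, also as a description.

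Between 2 and 6 months the members rose in ENT1-null annulus, and none passed in WT annulus; the difference between these age effects is the one tested above. In WT, 0 of 35 members and 0% of all genes passed between 2 and 6 months by limma; an unadjusted p below 0.05 was reached by 1 member and by 2067 (13.3%) of all genes, and each of the alternative fits also called 0 of both. The median over the members was 0.02, with 19 above 0 and 16 below, against 35.8% of all genes above 0. In ENT1-null, 33 of 35 members rose from 2 to 6 months, against 11.9% of all genes, with a median of 0.75. The arrays of both ages did not overlap for 34 of 35, against 30% of all genes. Cdc6 rose by 1.32 ± 0.21 (n = 2 and 2, limma adjusted p = 0.00628), Pole by 1.29 ± 0.16 (limma adjusted p = 0.0032) and Lig1 by 1.10 ± 0.16 (limma adjusted p = 0.00429). Fen1 (−0.23) and Pold2 (0.21) did not pass. The count fell to 16 without 2 month ENT1-null replicate 1 and to 17 without 6 month ENT1-null replicate 2. With both ages in 1 fit, 26 of 35 members were higher in ENT1-null, against 12.8% of all genes, with a median of 0.83.

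Arranged by group mean, 18 members (51.4%) ran in the order ENT1-null at 6 months, ENT1-null at 2 months, WT at 6 months, WT at 2 months, an order found in 10.3% of all genes. Another 15 (42.9%, against 13% of all genes) had the same order with the WT ages exchanged, and the WT groups, as given above, did not differ by a called amount. Mcm6 and Fen1 each had an order of their own. Set against the mean of the 2 month WT arrays, the median member deviated at 2 months by −0.09 and 0.09 in WT and by 0.42 and 0.52 in ENT1-null arrays, and at 6 months by 0.10 and −0.11 in WT and by 1.15 and 1.29 in ENT1-null arrays. The highest array was 6 month ENT1-null replicate 2 for 30 members, and the lowest was 6 month WT replicate 2 for 17 and 2 month WT replicate 1 for 14. In the RefSeq gene table, 6 of the measured members lie on chromosome 8 (Orc6, Cdt1, Mcm5, Gins2, Gins3 and Gins4), which holds 4.67% of all genes read, and 5 on chromosome 5 (Mcm7, Pole, Rfc2, Rfc3 and Rfc5).

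Other genes of replication, from lists that hold no member, were higher at 6 months as well, where 21.2% of all genes tested were higher. Of 7 chromatin and methylation factors all 7 rose (median 0.99), among them Dnmt1, the maintenance methyltransferase (1.13 ± 0.09, limma adjusted p = 0.000383), Hat1, which acetylates new histones (0.99), and, least, Rbbp4 (0.33). Of 17 further fork and Okazaki fragment factors 16 rose (median 0.61), with the highest moderated statistics for the nuclease Dna2 (1.49) and the ribonuclease subunit Rnaseh2b (1.22). Top2a, a topoisomerase named after its values were seen, had the largest difference of that list (2.60 ± 0.39), while Pole4 stood at −0.04 (limma adjusted p = 0.734). Of 14 further origin and firing factors 9 rose (median 0.57), with Ticrr, which helps fire origins, at 2.00 and Topbp1 at 1.04. The 5 that did not pass were Orc3 (−0.11) and, named after their values were seen, Orc2 (0.37), Orc4 (−0.08), Mtbp (0.24) and Recql4 (0.19). So Orc1 and Orc6 rose while 3 of the other 4 subunits of the origin recognition complex did not pass. Of 17 E2F, RB and S phase cyclin genes 14 rose (median 1.17), among them E2f2 (2.47 ± 0.20, limma adjusted p = 0.000383) and Mybl2 (1.40), transcription factors of dividing cells with the highest moderated statistics of the list. E2f8, named after its values were seen, had the list's largest difference (2.58 ± 0.37). E2f5, a member of the E2F family known from resting cells, fell by 0.52 (limma adjusted p = 0.0169). Of all genes tested, 17.6% fell at 6 months. E2f6 and Rbl2, named after their values were seen, stood at −0.32 and −0.10 and did not pass. Also named after their values were seen, E2f4 (1.22), Rbl1 (1.17) and Rb1 rose, so E2F and RB genes went both ways. At 2 months, where 0.683% of all genes passed in either direction, no gene of these lists passed by limma. Their medians there were 0.24, 0.13, 0.17 and 0.50. An unadjusted p below 0.05 was reached by 5 of 7, 6 of 17, 6 of 14 and 14 of 17, against 19.4% of all genes.

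DNA polymerases of repair and of mitochondria gave a comparison within the same enzyme class. Their mean level was 7.94 to 8.05 on every array, and of 9 genes 2 rose and 2 fell at 6 months, with a median of 0.13. These counts are near the shares of all genes, 21.2% higher and 17.6% lower. Poli and Polh, which copy past damaged bases, rose by 0.50 each, Polk fell by 0.37 (limma adjusted p = 0.0128), and Polb, named after its values were seen, fell by 0.40. All 8 replicative polymerase members rose.

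At 6 months most markers of blood-forming and blood cells were higher in ENT1-null annulus, as the members were. By age they differed more from the members. From 2 to 6 months in ENT1-null, 33 of 35 members rose, and so did 8 of 9 erythroid but 1 of 18 neutrophil markers, against 11.9% of all genes. The mean of 9 erythroid markers was 7.43 and 7.85 against 8.93 and 8.84 at 2 months, and 8.42 and 7.74 against 9.87 and 10.18 at 6 months. At 6 months 9 of 9 tested rose, and 1 of 9 at 2 months (Klf1, an erythroid transcription factor, by 1.32). The mean of 18 neutrophil markers was 8.45 and 9.68 against 10.43 and 10.81 at 2 months and 9.74 and 8.30 against 11.57 and 11.51 at 6 months, and 18 of 18 rose at 6 months; at 2 months 0 passed by limma and 17 had an unadjusted p below 0.05. In both lists, as in the median member, 2 month WT replicate 1 and 6 month WT replicate 2 were the lower arrays of their groups. The same held for the eosinophil, macrophage, B cell, haematopoietic progenitor, osteoclast, endothelial and skeletal muscle lists. It did not hold for the T and NK cell, osteoblast, and annulus and cartilage lists. Eosinophil markers rose in 6 of 6 tested at 6 months and in 2 of 6 at 2 months (Epx and Ccr3). At 6 months, against 21.2% of all genes, macrophage markers rose in 10 of 11, B cell markers in 8 of 10, T and NK cell markers in 3 of 5, and markers of haematopoietic progenitors in 6 of 9. The other 3 progenitor markers lay below 0, the lowest at −0.33, and did not pass. None of these 4 lists had a call by limma at 2 months, where 0.296% of all genes passed as higher. An unadjusted p below 0.05 was reached there by 7 of 11, 4 of 10, 1 of 5 and 5 of 9, against 19.4% of all genes. The T and NK cell count is near that share. No measured marker is at 0 on this scale, and Il5ra, Cd163, Vpreb1, Cd3g, Klrb1c, Gzma and Calcr lay below the filter level. The part of these cells in the rise of the replication genes was not tested.

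Markers of the labelled tissue were present, with the mean of 15 annulus and cartilage genes between 10.43 and 10.89 in the WT arrays and all 15 above the filter level. At 6 months 10 of the 15 were lower in ENT1-null, among them Sox9, the transcription factor of cartilage (−1.11), and 2 were higher, Col1a1 and Col1a2. At 2 months 0 passed by limma and 6 had an unadjusted p below 0.05, against 19.4% of all genes. Osteoclast markers rose in 7 of 7 at 6 months, endothelial markers in 2 of 8, and osteoblast markers in 2 of 6, with 2 lower. Against 21.2% of all genes higher and 17.6% lower, the endothelial count is near the share of all genes. The mean of skeletal muscle markers ran from 7.24 to 10.27 between arrays, and 11 of 12 were lower at 6 months. Both 6 month WT arrays (10.25 and 10.11) were near the top. The median difference of these markers was −2.34 at 6 months, opposite in sign to that of the members. At 2 months it was 1.04, of the same sign as in the members, and no muscle marker passed. The part of any of these tissues in the members' values was not tested either.

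**Figure D4:**
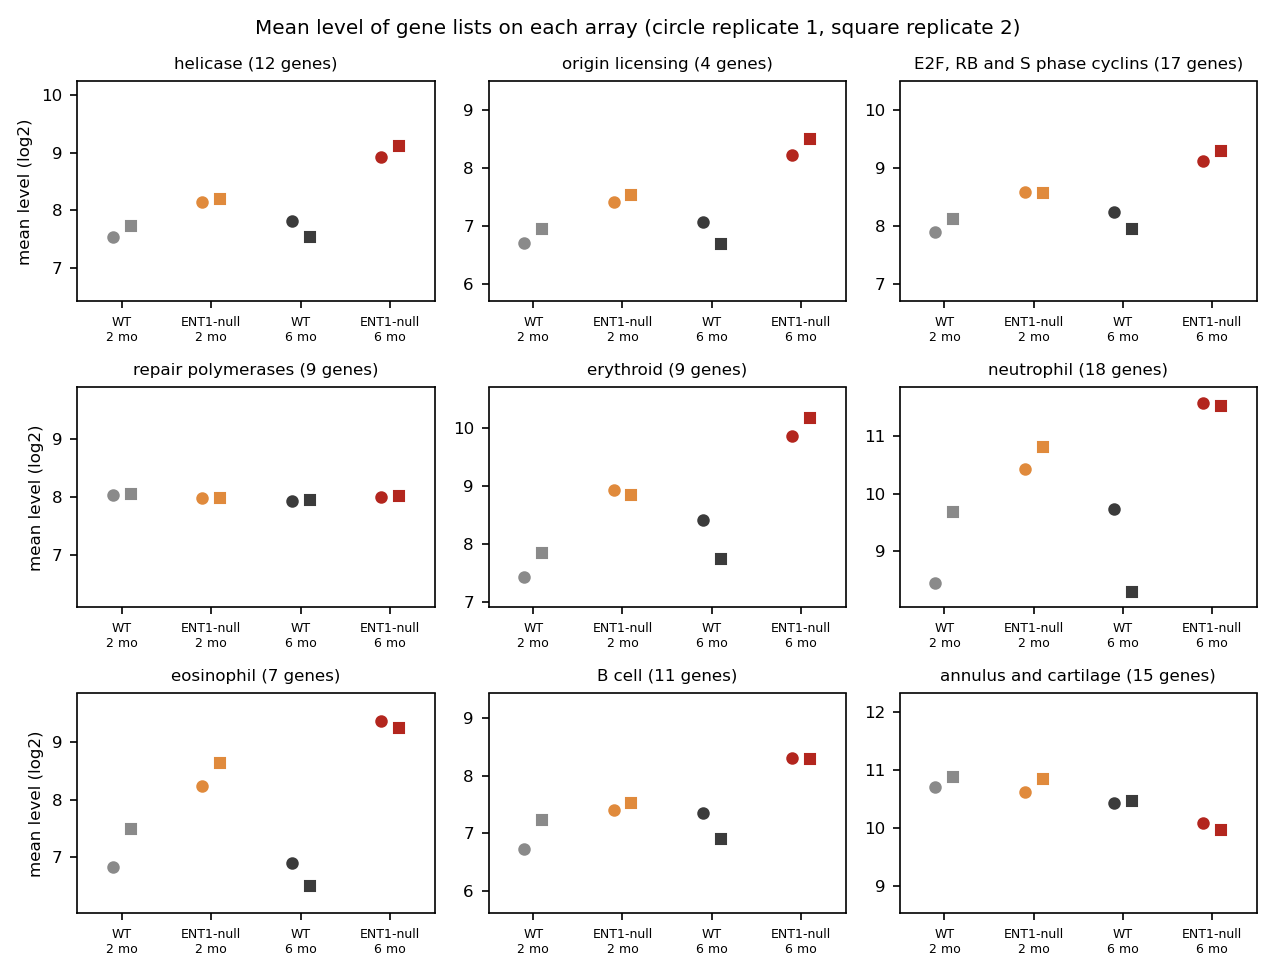
Mean log2 level of 9 gene lists on each array (circle replicate 1, square replicate 2), all measured genes of a list included. All panels span the same number of log2 units, each around its own centre. Licensing, helicase and S phase genes and the erythroid, neutrophil, eosinophil and B cell markers are highest in the 6 month ENT1-null arrays, repair polymerases stay between 7.94 and 8.05, and annulus and cartilage markers are lowest there.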

How the data were processed

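RNA from pools of thoracic annulus fibrosus was measured on 8 arrays, 2 in each of 4 groups taken from the labels. The deposited values are log2 levels, 1 per probe set and array, made with RMA per the submitters' processing notes. The sources used here do not give the RMA version, the array design or a genome build. Of 41345 probe sets, 23521 had 1 gene symbol, 1814 several and 16010 none, and each gene was read from its brightest single-gene probe set. Genes whose mean fell below the 30th percentile (6.21) were left out, and no array was.

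Models were fitted in R 4.3.3 with limma 3.58.1, either to 4 group means (4 residual degrees of freedom) or to genotype and age as terms (5) for the comparison across ages. Statistics were moderated with eBayes and p-values adjusted over all 15526 genes in each of 6 comparisons (Benjamini-Hochberg). The fits were tested on simulated data. Arrays were not paired by number, as no label ties a number to an animal or day.

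The members and all gene lists were chosen with earlier results of these data known. In each subset, the 2 members with the highest and the 1 with the lowest moderated statistic at 6 months are described in full (both in a subset of 2), every other member by its differences, and each further replication list gives the same 3 genes. Marker genes named are among the 2 with the largest statistic of a list, apart from Col1a1 and Col1a2, chosen after their values were seen. Promoter windows are RefSeq, GRCm38.p6. Alternatives were: the filter removed or raised to the 50th percentile; a second quantile normalization; arrays centred on medians; a gene's probe sets averaged or all kept; a replicate block; trend and robust in eBayes; the compared groups alone; and each array left out.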

Additional observations from a re-analysis of the deposited data

Results flagged for a closer look

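For 9 members the ENT1-null effect at 6 months differed from that at 2 months by limma's test of the difference itself, at an adjusted p between 0.0383 and 0.0494. The difference of the effects (6 minus 2 months, log2) was 1.41 for Lig1, 1.30 for Tipin, 1.11 for Mcm7, 0.99 for Cdc45, 0.87 for Rfc2, 0.83 for Mcm4, 0.75 for Pola1, 0.69 for Gins4 and 0.64 for Prim1. In each of the 9 the effect was larger at 6 months. These calls depended on the processing: 0 members passed without the filter on low values, and 4 of the 9 passed with the replicate number as a block. No group had the 4 arrays needed to look for an array that stands apart.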

How the results depend on the processing

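At 6 months 34 members were higher in all arrays, and 32 to 34 with 1 array left out; all genes called numbered 6022, or 3670 to 5887, and the members' median of 1.21 ran from 1.04 to 1.33. At 2 months the 1 called member (of 106 genes, 46 higher and 60 lower) became 0 without the filter (29 genes), 2 with a filter at the 50th percentile, 4 with arrays centred on medians (161 genes, 96 higher and 65 lower), 5 with trend and robust (259 genes), 0 with only the groups compared (0 genes), and 0 to 9 with 1 array left out (0 to 358 genes; median 0.39 to 0.55). For the difference of the effects the 9 members (of 691 genes, 398 higher and 293 lower) became 0 without the filter (11 genes), 15 with centred arrays (600 higher and 308 lower), 15 with trend and robust (1102 genes), and 0 to 9 with 1 array left out (0 to 319 genes; median 0.64 to 0.85); a second quantile normalization gave 299 higher and 407 lower genes. By age in ENT1-null, 1 array left out gave 16 to 33 members, 1519 to 3160 genes and medians of 0.68 to 0.82; in WT it gave 0 members, 0 genes and medians of −0.11 to 0.10; across ages it gave 18 to 31 members, 1390 to 4343 genes and medians of 0.70 to 0.92.

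With the replicate number as a block, 0 members and 1 gene passed at 2 months, and 5 members (4 of them among the 9) and 353 genes passed for the difference of the effects. Same-numbered deviations correlated between −0.395 (WT at 2 and 6 months) and 0.415 (WT and ENT1-null at 2 months) over the 6 pairs of groups. With 2 arrays a group, these values cannot tell whether the numbers pair the arrays.

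Directions reversed for 6 members at 2 months and for Fen1 in 2 other comparisons. At 2 months, with 1 array left out, Fen1 ran from −0.04 to 0.10, Mcm6 from −0.01 to 0.03, Pold2 from −0.01 to 0.19, Tipin from −0.03 to 0.22, Rfc3 from −0.04 to 0.07 and Rpa2 from −0.10 to 0.24, none of them called. At 6 months Fen1 ran from −0.42 (without 6 month ENT1-null replicate 2, where it passed as lower) to 0.06, and by age in ENT1-null from −0.48 to 0.01. As the mean of its probe sets Fen1 gave 0.51 at 6 months and 0.26 by age in ENT1-null. In that fit it passed as higher at 6 months, as did all 35 members tested. No other recomputed difference of a single member reversed. Apart from alternatives whose construction leaves fewer arrays or more genes to test, the cause was not tested.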
